A study of Rattus norvegicus with 8 samples.

Results

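miR-103 and miR-107 are a pair of closely related microRNAs whose genes lie inside genes for pantothenate kinases. Their rows in the known rat miRNA counts of rat kidney were chosen by name, as every row named miR-103 or miR-107 with any arm suffix, after the comparison of treated and control rats in these counts was known. The rule found 5 of 620 rows, which are rno-miR-103, rno-miR-107 and the opposite arms rno-miR-103-1*, rno-miR-103-2* and rno-miR-107*. The asterisk is part of the deposited names, and in this pair the rows with it had far fewer reads than the main arm rows.

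The kidneys came from male Big Blue transgenic rats of the Fisher 344 strain, 6 weeks old at the start. The 4 rats of the AA group received aristolochic acid as its sodium salt, a plant compound that is toxic to the kidney and carcinogenic, by gavage at 10 mg/kg (4 ml/kg) 5 times a week for 12 weeks, and the 4 control rats were dosed alike with 0.9% sodium chloride alone. All rats carried the transgene, and kidneys were taken 1 day after the last dose. With 4 rats and 4 libraries in each group, a library was taken as 1 rat. The libraries held 15250865, 14674442, 15525397 and 13736874 reads on known miRNAs in control rats 1 to 4, and 13412373, 15200830, 13814612 and 15616670 in AA rats 1 to 4.

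A miRNA gene is transcribed as a hairpin, from which Drosha and Dicer cut a short duplex. One strand enters an Argonaute protein and pairs with messenger RNAs mainly through its seed, bases 2 to 8, and the other strand is mostly degraded. In mammals miR-103 is made from a pair of genes, in introns of Pank3 and Pank2, and miR-107 from an intron of Pank1. The host enzymes catalyse the first step of coenzyme A synthesis, and both miRNAs are known for roles in insulin sensitivity, lipid metabolism and the control of Dicer itself. They are expressed in many tissues, and miR-103 is often used as a reference in measurements of other miRNAs.

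The mature sequences are shown because the pair can be told apart at a single base. They are from RefSeq (assembly GRCr8), written 5′ to 3′ with the seed in capitals, and 3 of the 5 names were matched there.
rno-miR-103: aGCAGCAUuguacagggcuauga
rno-miR-107: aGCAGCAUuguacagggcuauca
rno-miR-103-2*: aGCUUCUUuacagugcu

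The main arms of 23 nt had the same seed and 1 substitution, G22C, which gives the base of miR-103, its position from the 5′ end (the first base is 1) and the base of miR-107. Among 694 mature rat miRNAs in the RefSeq table, 2 had this seed, and they were miR-103 and miR-107. A read that ends before base 22 fits both, and how the authors assigned such reads is not given in the sources used here, so that the division of reads between them is uncertain. The same holds for the opposite arms. The sequence of rno-miR-103-2* of 17 nt lay in its own hairpin without a mismatch, in that of miR-103-1 with the substitution A1G and in that of miR-107 with C16U.

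The hairpins are shown with the mature main arm in capitals, because both miR-103 genes yield the same main arm and differ in other bases, among them the first base of the miR-103-2* sequence.
rno-mir-103-1: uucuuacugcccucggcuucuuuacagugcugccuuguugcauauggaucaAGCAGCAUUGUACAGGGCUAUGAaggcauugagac
rno-mir-103-2: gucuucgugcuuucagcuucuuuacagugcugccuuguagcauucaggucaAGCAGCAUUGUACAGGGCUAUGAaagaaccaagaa
rno-mir-107: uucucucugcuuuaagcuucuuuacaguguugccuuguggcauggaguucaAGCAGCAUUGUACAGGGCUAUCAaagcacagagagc

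In GRCr8 the hairpin of rno-mir-103-1 is at chr10:20748474-20748559 on the plus strand inside Pank3, that of rno-mir-103-2 at chr3:138963227-138963312 on the plus strand inside Pank2, and that of rno-mir-107 at chr1:241750418-241750504 on the minus strand inside Pank1. Each lay on the strand of its host gene, and no other protein-coding gene spanned it. Exon limits of the host genes were not analysed here, and the counts themselves carry no coordinates. Over the 74 bases from the 5′ end to the end of the main arm, the hairpins of miR-103-1 and miR-103-2 shared 85.1% of their bases, and that of miR-107 shared 82.4% with the first and 85.1% with the second.

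miR-103, the more abundant of the pair, was lower in the kidneys of AA-treated rats. It had 182133, 188737, 259629 and 283678 reads in control rats 1 to 4, and 128969, 125260, 99579 and 105459 in AA rats 1 to 4. As CPM, the reads in every 1000000 of a library after TMM scaling between libraries, these were 13657, 13889, 16100.3 and 23109 for control rats and 9969, 6795, 6851 and 6247 for AA rats. Every AA rat lay below every control rat, with the fourth control rat highest of all and the first AA rat closest to the controls. The group means were 16689 ± 4419 and 7465 ± 1691 CPM (SD, n = 4 each), so that miR-103 was 2.24-fold lower. On the log2 scale the fitted change was -1.16, with an SE of 0.22 (edgeR quasi-likelihood F-test, adjusted p = 0.0057 by Benjamini-Hochberg across 367 miRNAs). Without scaling, miR-103 made up 1.55% ± 0.398 of the reads of a control library and 0.795% ± 0.127 of an AA library (SD, n = 4 each), and these shares did not overlap either. In bulk tissue, fewer cells of a type and less RNA per cell cannot be told apart.

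miR-107 was also lower in the AA group, by a smaller amount. Its reads were 2836, 3046, 3586 and 4149 in control rats 1 to 4, and 2171, 2940, 2239 and 2100 in AA rats 1 to 4. As CPM these were 213, 224, 222 and 338 for control rats and 168, 159, 154 and 124 for AA rats. The groups did not overlap as CPM, with the fourth control rat again highest. The means were 249 ± 59.3 and 151 ± 18.9 CPM (SD, n = 4 each), which is 1.65-fold lower. The fitted log2 change was -0.72, with an SE of 0.20 (edgeR adjusted p = 0.037). As unscaled shares the groups did overlap, since the second AA rat, at 0.0193% (95% Wilson interval 0.0187% to 0.0201%, which covers counting error only), lay above the first control rat, at 0.0186% (0.0179% to 0.0193%). With total counts in place of TMM the log2 fold change was -0.51 (adjusted p = 0.12 from edgeR), and the call was also lost when any 1 library was left out (adjusted p between 0.054 and 0.072 from edgeR) or when no filter on reads was used (adjusted p = 0.051). miR-103 passed the threshold in all 17 alternative fits, with log2 fold changes between -1.46 and -0.95.

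**Figure D1:**
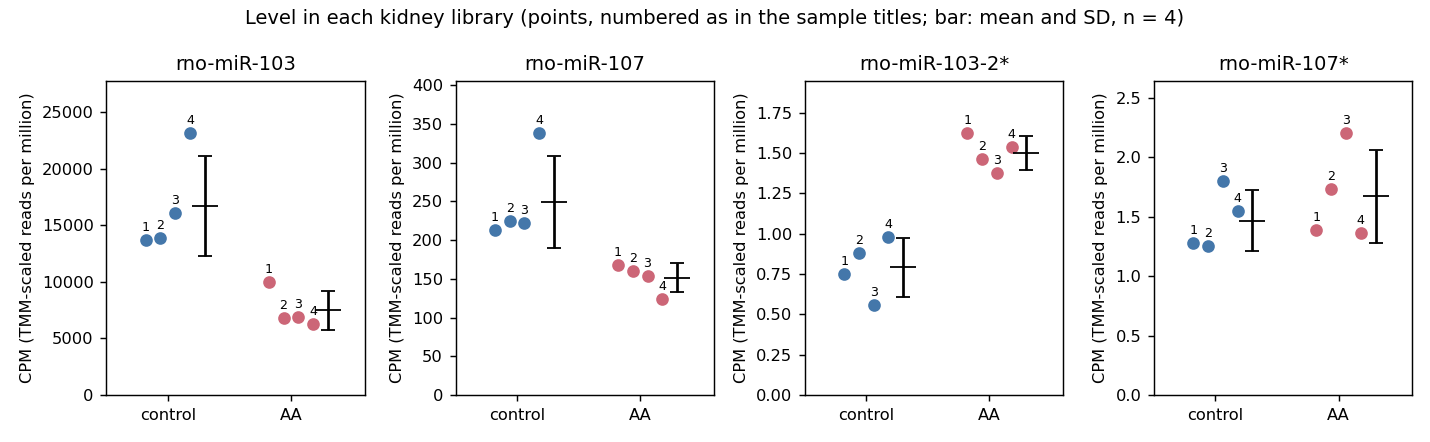
Level of miR-103, miR-107 and the tested opposite arms in each library as CPM (linear axis from 0), with points for the 4 control and 4 AA libraries and bars for mean and SD. For miR-103 the control rats lie between 13657 and 23109 CPM and the AA rats between 6247 and 9969, while the values of miR-107* overlap between the groups.

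The opposite arms did not follow the main arms. rno-miR-103-2*, the opposite arm of the Pank2 hairpin, had 10, 12, 9 and 12 reads in control rats 1 to 4, and 21, 27, 20 and 26 in AA rats 1 to 4. The groups did not overlap, and the means were 0.792 ± 0.182 and 1.50 ± 0.106 CPM (SD, n = 4 each). The log2 fold change was 0.92 (SE 0.27; edgeR adjusted p = 0.042). With so few reads the counting error is wide, as 10 reads carry a 95% Poisson interval of 4.80 to 18.4 reads. The call was lost in 13 of 16 alternative fits, although the direction was the same in all of them.

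rno-miR-107*, the opposite arm of the Pank1 hairpin, had 17, 17, 29 and 19 reads in the control rats and 18, 32, 32 and 23 in the AA rats. These values overlapped, and the log2 fold change of 0.18 (SE 0.27) did not pass the test (adjusted p = 0.67 from edgeR). rno-miR-103-1*, from the Pank3 hairpin, had 5, 5, 3 and 1 reads in the control rats and 4, 13, 5 and 10 in the AA rats, and was not tested because only 2 libraries reached 10 reads. Of the 183 reads on the opposite arms of both miR-103 hairpins, 74.9% were counted on rno-miR-103-2*, namely 75.4% of 57 reads in control rats and 74.6% of 126 in AA rats. In single libraries the share was 66.7% to 92.3% of 12 to 17 reads in control rats and 67.5% to 84.0% of 25 to 40 reads in AA rats, and these ranges overlapped. A read of this arm that starts at base 2 fits both hairpins, so that the division is uncertain, and the mature arm itself does not show from which gene it came.

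Of the 4 members tested, 3 had an adjusted p-value under 0.05, while 16.3% of the 367 tested miRNAs did. 2 were lower in the AA group, against 5.99% of all tested, and 1 was higher, against 10.4%. The CPM of 3 members did not overlap between the groups, against 24.3% of all tested. The members were picked with these results in view, so that the counts describe them and are not independent support. The median log2 fold change of all tested miRNAs was 0.06, and 9 of the 22 miRNAs called lower fell by more on the log2 scale than miR-103.

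**Figure D2:**
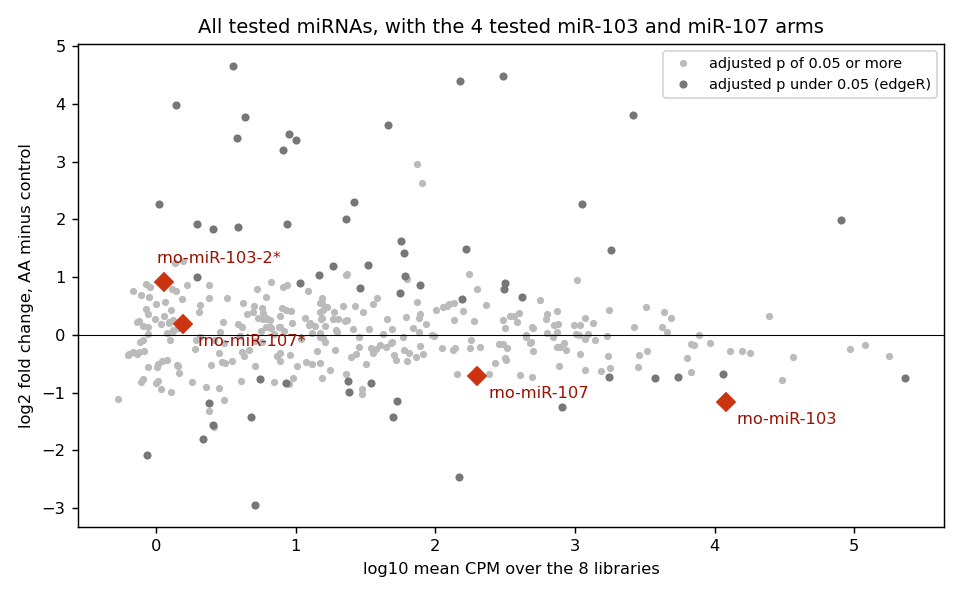
Log2 fold change (AA minus control) of the 367 tested miRNAs against log10 of the mean CPM over 8 libraries, with dark points at an adjusted p under 0.05 and diamonds for the 4 tested members. miR-103 is among the most abundant called miRNAs with a fall, at -1.16, and both opposite arms lie at the low end of abundance with values above 0.

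Ratios within a library do not depend on the scaling between libraries, and they were used to ask whether the pair moved by the same amount. miR-103 had 64.2, 62.0, 72.4 and 68.4 reads for each read of miR-107 in control rats 1 to 4, and 59.4, 42.6, 44.5 and 50.2 in AA rats 1 to 4. Every AA rat had a lower ratio than every control rat, but the first AA rat and the second control rat differed by less than their counting error, with 95% Wilson intervals for the share of miR-103 in the reads of both of 98.27% to 98.41% and 98.35% to 98.47%. The mean log2 ratio went from 6.06 ± 0.0992 to 5.61 ± 0.215 (SD, n = 4 each), a difference of -0.45 (exact permutation test, two-sided, p = 0.0286, the smallest that 4 against 4 rats allow). On this measure miR-103 was lower by more than miR-107, as far as the reads were divided correctly between them. A ratio shows an unequal change and not that either miRNA was unchanged.

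For each 100000 reads of miR-103 there were 5.49, 6.36, 3.47 and 4.23 reads of miR-103-2* in control rats 1 to 4, and 16.3, 21.6, 20.1 and 24.7 in AA rats 1 to 4. The groups were far apart, and the mean log2 ratio rose by 2.10, from -14.36 ± 0.389 to -12.26 ± 0.250 (SD, n = 4 each; exact permutation test, two-sided, p = 0.0286, adjusted p = 0.0286 over the 2 arm ratios). miR-107* made up 0.596%, 0.555%, 0.802% and 0.456% of the reads on both arms of miR-107 in the control rats, and 0.822%, 1.08%, 1.41% and 1.08% in the AA rats. The mean log2 ratio of its arms rose by 0.88, from -7.40 ± 0.340 to -6.52 ± 0.321 (SD, n = 4 each), with the same exact permutation p = 0.0286 and adjusted p = 0.0286. Both p-values are the smallest this design allows, and adjusting equal values left them as they were. The arm ratios use the same reads as the changes of each arm given above, so they are not independent support. For miR-107 the larger part was the main arm, at -0.72, against 0.18 for miR-107*. For miR-107* the groups nearly touched, since the first AA rat, with a 95% Wilson interval of 0.521% to 1.30%, and the third control rat, with 0.559% to 1.15%, differed by less than their counting error. Arms that part in this way were not particular to the pair. miR-152 and miR-191 had log2 fold changes of -0.75 and -0.64, and their opposite arms 0.62 and 0.87 (edgeR adjusted p = 0.14 and 0.076, not called). miR-194 and miR-194* were both lower, at -0.73 and -0.84. Arm ratios of other hairpins were not tested.

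**Figure D3:**
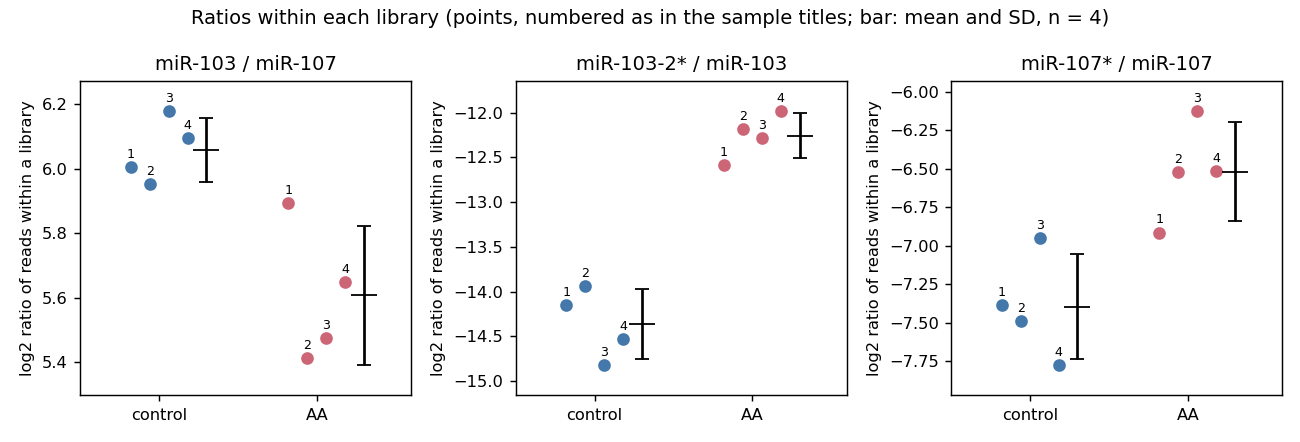
Log2 ratio of reads within each library for miR-103 over miR-107, miR-103-2* over miR-103 and miR-107* over miR-107 (axes not starting at 0), with points for the 4 control and 4 AA libraries and bars for mean and SD. The first ratio is lower and both arm ratios are higher in the AA group, by -0.45, 2.10 and 0.88.

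By mean CPM over the 8 libraries miR-103 ranked 12 of 620, at 12077 CPM, between miR-101b at 12782 and miR-140* at 11520. Its rank was 11 among control rats and 15 among AA rats. It exceeded each of these neighbours in 2 of the 8 libraries, so that its place above miR-140* rests on 2 libraries, and the order of the 3 is not settled. The SD of miR-103 over the 8 libraries was 5822 CPM, which holds the difference between the groups as well as the spread within them. miR-107 ranked 96 at 200.4 CPM, next to miR-199a-5p at 200.5 and miR-218 at 198, which it exceeded in 5 and 6 of the 8 libraries. The main arms of the pair had the same length, but their levels rest on how shared reads were divided between them, which is uncertain.

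The miRNAs most alike in pattern were found by the root mean square distance between log2 CPM values, each centred on its own mean over the 8 libraries. For miR-103 the nearest was miR-3545-3p at 0.256, followed by miR-107 at 0.268, miR-125b* at 0.270 and miR-152 at 0.271, where the median over the other miRNAs was 0.769. For miR-107 the nearest were miR-125b* at 0.160, miR-152 at 0.173 and miR-140* at 0.200, with a median of 0.586, and miR-103 ranked 16. All 4 of these miRNAs were lower in the AA group, with log2 fold changes of -1.26 for miR-3545-3p, -0.84 for miR-125b*, -0.75 for miR-152 and -0.68 for miR-140* (adjusted p = 0.0057, 0.031, 0.011 and 0.021 from edgeR). They were selected on the same 8 libraries, so that their direction follows from the choice. The calls of miR-125b* and miR-140* were lost without the first control, second control or second AA library, and that of miR-125b* also without the fourth control library (edgeR adjusted p between 0.052 and 0.073). With total counts the log2 fold change of miR-125b* was -0.63 and did not pass (edgeR adjusted p = 0.065).

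miR-103 and miR-107 belong to a wider group with miR-15, miR-16 and others, whose members share the letters AGCAGC near the 5′ end and are known for targets in the cell cycle and metabolism. These letters begin at base 1 in the pair and at base 2 in the rest of the group, so that the seeds are offset by 1 base, as the sequences of the most abundant member, miR-16, and of the called members show (RefSeq, GRCr8, seed in capitals).
rno-miR-16: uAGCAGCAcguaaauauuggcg
rno-miR-322: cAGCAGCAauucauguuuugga
rno-miR-503: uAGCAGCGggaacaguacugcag

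In the RefSeq table the letters were found in 10 of 694 mature miRNAs, or 1.44%, on the RNA strand as written. Besides the pair, 6 main arms of the group were rows of the counts, and all 6 were tested. miR-322 and miR-503, which are neighbours on chromosome X, rose, which is 2 of 6 against 10.4% of all tested miRNAs called higher, and the other 4 did not pass the test. The median log2 fold change of the 6 was 0.26, against 0.06 over all tested miRNAs. miR-322 had 234, 234, 238 and 183 CPM in the control rats and 439, 416, 276 and 526 in the AA rats, without overlap (log2 fold change 0.90, standard error 0.21, adjusted p = 0.017 from edgeR). miR-503 had 88.6, 99.7, 82.1 and 80.2 CPM in the control rats and 414, 180, 83.7 and 303 in the AA rats, where the third AA rat lay within the controls (log2 fold change 1.48, standard error 0.40, adjusted p = 0.031 from edgeR). The call of miR-503 was lost in 6 of the 8 fits that left out 1 library, all but those without AA library 2 or 3 (edgeR adjusted p between 0.068 and 0.10), and without the first AA library its log2 fold change was 0.97. The call of miR-322 was also lost in 3 of these fits, those without control library 3, AA library 1 or AA library 4 (edgeR adjusted p between 0.051 and 0.057), where 0 of the 6 main arms passed the threshold, and with the 6 libraries numbered 1 to 3 it was also 0, at log2 fold changes of 0.63 and 1.26 for miR-322 and miR-503.

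miR-15b, at 551 ± 68.9 and 711 ± 41.4 CPM (SD, n = 4 each, control and AA), and miR-16, at 2527 ± 247 and 2790 ± 223, had log2 fold changes of 0.37 and 0.14 (adjusted p = 0.13 and 0.49 from edgeR). miR-195 and miR-497 were at 0.11 and 0.12 (adjusted p = 0.73 and 0.72). Among the other arms of these hairpins, miR-15b* rose by 1.03 and miR-16* by 1.01 (adjusted p = 0.013 and 0.042 from edgeR), while 4 more rows were tested and not called. They include rno-miR-322* and rno-mir-322*, whose names differ only in letter case, at -0.36 and -0.23 (edgeR adjusted p = 0.30 and 0.51). Of all tested miRNAs 10.4% were called higher. The call of miR-15b* held in all 17 alternatives and that of miR-16* in 6. miR-103 and miR-107 held 78.0%, 76.5%, 79.8% and 87.5% of the reads on the 8 main arms of the group in control rats 1 to 4, and 68.8%, 57.4%, 61.2% and 57.1% in AA rats 1 to 4. The pair was thus the largest part of the group in every rat, with a lower share in each AA rat than in any control rat.

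**Figure D4:**
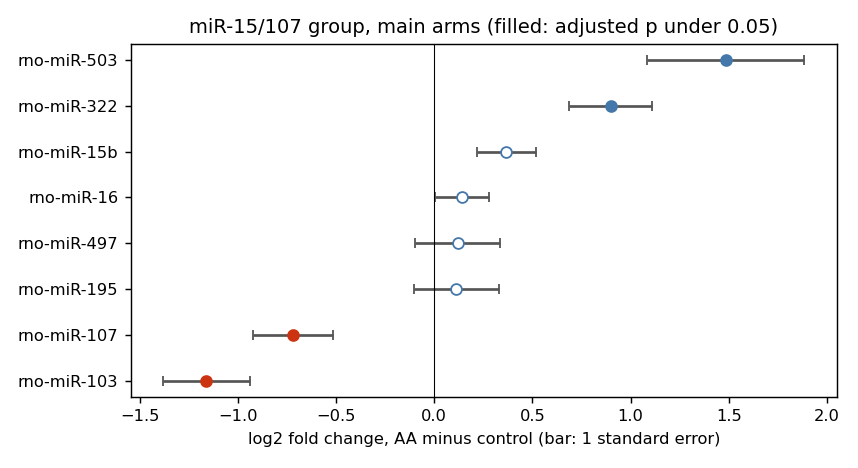
Log2 fold change (AA minus control) of the main arms of the group that shares AGCAGC with 1 standard error, filled at an adjusted p under 0.05 from edgeR. miR-103 and miR-107 lie below 0, at -1.16 and -0.72, and miR-322 and miR-503 above 0, at 0.90 and 1.48.

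Other miRNAs in introns of metabolic genes were set beside the pair. miR-378, in an intron of Ppargc1b, a coactivator of mitochondrial genes, had 311890, 297250, 224008 and 323982 CPM in the control rats and 175389, 146511, 201595 and 166765 in the AA rats. The groups did not overlap, and the log2 fold change was -0.75 (SE 0.18; edgeR adjusted p = 0.019). miR-33, in an intron of Srebf2, a regulator of cholesterol synthesis, was at 83.3 ± 15.7 and 72.5 ± 17.6 CPM (SD, n = 4 each), with a log2 fold change of -0.20 (adjusted p = 0.59 from edgeR). The call of miR-378 was lost without control library 1, 2 or 4 (log2 fold changes of -0.71, -0.74 and -0.69, edgeR adjusted p = 0.057, 0.060 and 0.056).

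Of 9 miRNAs often used as references, counting both arms of miR-423, 1 was called with TMM scaling and all 8 libraries, against 16.3% of all tested. That 1 was miR-103, and the median log2 fold change of the 9 was -0.04. miR-191 was lower in each AA rat than in any control rat, at 8291 ± 432 and 5334 ± 1394 CPM (SD, n = 4 each), but did not pass the test in the fit with TMM scaling and all 8 libraries (log2 fold change -0.64, adjusted p = 0.054 from edgeR). It was called in 8 of 17 alternatives, among them DESeq2 size factors (adjusted p = 0.048 from edgeR), upper quartile scaling (0.046 from edgeR), the DESeq2 Wald test (0.031) and the replicate block (0.029 from edgeR). The others had log2 fold changes of 0.49 for let-7a, 0.40 for miR-423, 0.14 for miR-16, 0.05 for miR-93, -0.04 for miR-25, -0.14 for miR-423* and -0.34 for miR-26b, and none was called, with adjusted p-values of 0.14 or more from edgeR. The SD of log2 CPM over the 8 libraries was 0.69 for miR-103 and 0.44 for miR-107, which ranked 272 and 177 from the smallest among 364 miRNAs with reads in every library. miR-16 at 0.14 ranked 4 and miR-25 at 0.17 ranked 10. Within the control group alone the SD of miR-103 was 0.35, at rank 221.

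**Figure D5:**
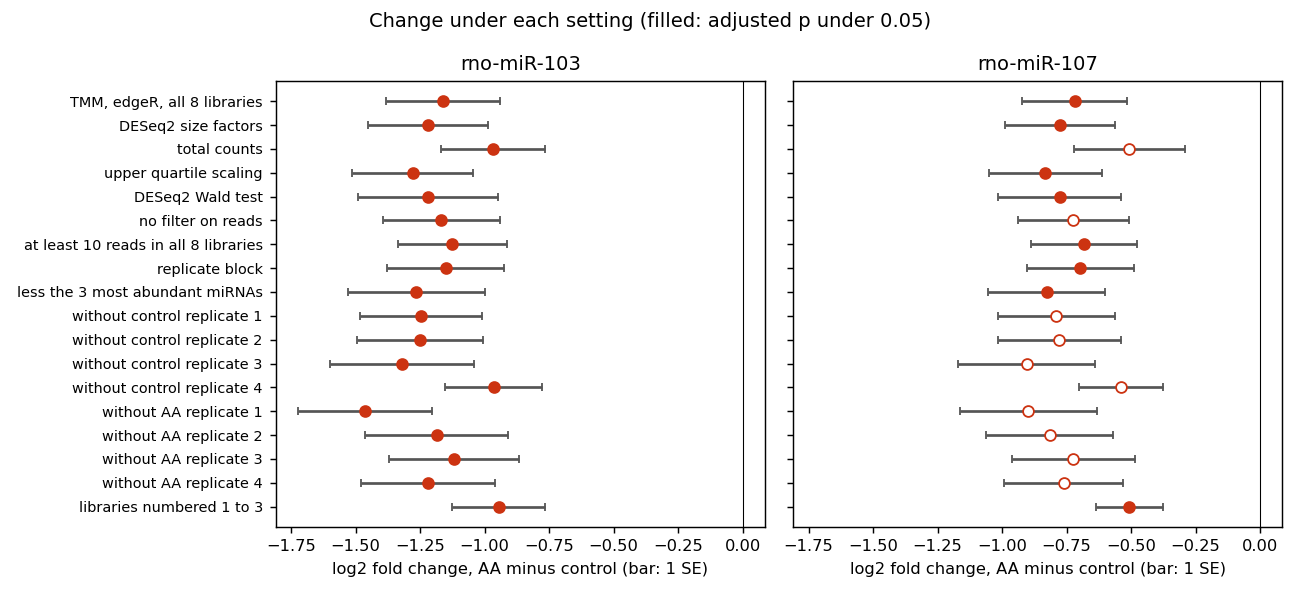
Log2 fold change (AA minus control) of miR-103 and miR-107 with 1 standard error under each setting, on a shared axis, filled at an adjusted p under 0.05. Every value lies below 0, and miR-103 is filled throughout, whereas miR-107 is open in 10 of the 17 alternatives.

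Markers of cell types moved between the same groups. The summed CPM of 4 leukocyte miRNAs was 1264, 1089, 1164 and 914 in the control rats and 2435, 2930, 2057 and 4121 in the AA rats, 2 of the 4 rose (miR-142-3p, the most abundant, and miR-223), against 10.4% of all tested, and none was at 0. The sums were mostly miR-142-3p, at 3875 CPM in the fourth AA rat. miR-150 and miR-142-5p were not called, at 0.58 and 0.30 (edgeR adjusted p = 0.062 and 0.56). In the fourth AA rat miR-142-5p was at 29.3 CPM, below every control rat. The summed CPM of 3 fibroblast miRNAs was 472, 517, 468 and 526 in the control rats and 536, 817, 854 and 994 in the AA rats, and 1 of the 3, miR-199a-3p, which was the most abundant, rose, against the same 10.4%. Another of the 3, miR-199a-5p, was called in 1 of 17 alternatives, the replicate block (log2 fold change 0.75, adjusted p = 0.018 from edgeR). The sum of 8 epithelial and nephron miRNAs was 44587, 35692, 34317 and 84530.2 CPM in the control rats and 35795, 24721, 31477 and 34643 in the AA rats, and these sums overlapped. Of the 8, 2 fell, miR-194 and miR-204, against 5.99% of all tested, and 6 were not called. The log2 fold changes of these 6 were -0.79 for miR-192, -0.34 for miR-200a, -0.27 for miR-200b, -0.07 for miR-429, 0.13 for miR-141 and 0.42 for miR-200c. The median of the 8 was -0.31. The most abundant of them, miR-192, was at 74959 CPM in the fourth control rat, where miR-103 and miR-107 were also highest, and at 21508 to 32806 in the other control rats. The part of these cell types in the levels of the pair was not tested. Without the fourth control library the log2 fold change of miR-103 was -0.96 (adjusted p = 0.011 from edgeR) and that of miR-107 was -0.54 (adjusted p = 0.062).

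No marker was called among 2 of red blood cells, 2 of endothelium, 2 of smooth muscle, 1 of liver, 3 tested of skeletal and heart muscle and 1 tested of brain. Of all tested miRNAs 16.3% were called. One field of the labels gives the tissue as liver. The liver miRNA miR-122 was at 53.0, 4.05, 5.89 and 4.89 CPM in the control rats and at 0.696, 523, 2.96 and 1.18 in the AA rats, below the summed CPM of the epithelial and nephron miRNAs in every library. That sum was largely miR-192, with a mean of 30336 CPM over the 8 libraries, and the tissue was not tested by these levels. miR-122 was above the least abundant of the epithelial and nephron miRNAs, miR-204, in the first control rat (30.8 CPM) and in the second AA rat (19.5 CPM). Without the second AA library, where it was highest, miR-103 had a log2 fold change of -1.19 (adjusted p = 0.020 from edgeR).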

How the data were processed

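Kidney RNA of 8 rats, 4 in each group, was made into small RNA libraries from gel bands of short fragments and sequenced (Illumina Genome Analyzer II). Reads were mapped by the authors with miRanalyzer, which uses Bowtie, to known rat miRNAs of miRBase, and the authors deposited whole-number read counts per miRNA and library, without normalization. The mismatches allowed and the rule for reads shared by near-identical miRNAs are not given in the sources used here. The submitters' processing notes also name DESeq, without a version.

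Groups were taken from the sample titles. The groups were compared by the quasi-likelihood F-test of edgeR 4.0.16 (R 4.3.3, TMM scaling, Benjamini-Hochberg adjustment, threshold 0.05) for the 367 miRNAs that reached 10 reads in 4 or more libraries, and the step was first tested on simulated data. The standard error is the log2 fold change divided by the square root of F. Ratios within a library were compared by exact permutation tests. Intervals are 95% Wilson or exact Poisson intervals. The depth was 13412373 to 15616670 reads a library, at which the opposite arms had 1 to 32 reads and wide counting intervals.

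The miRNAs named are all rows of miR-103 and miR-107, the rest of the group that shares AGCAGC, 2 metabolic intron miRNAs, 9 reference miRNAs, the neighbours in level, the 3 most alike in pattern for each main arm, and cell type markers. Of the markers, the called, the most abundant, the liver marker and the uncalled leukocyte, epithelial and nephron ones are given. miR-15a, miR-424 and miR-208 were not matched in the counts. The members and lists were chosen with earlier results of these data known. The alternatives were DESeq2 1.42.0 size factors, total counts, upper quartile scaling, the DESeq2 Wald test, other filters on reads, the library number as a block, removal of the 3 most abundant miRNAs, and each library left out. The 6 libraries numbered 1 to 3 were added after the data were seen.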

Additional observations from a re-analysis of the deposited data

Results flagged for a closer look

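3 values lay far from the other libraries of their group by Dixon's test, among 46 groups of 4 libraries examined, and chance alone would set apart about 1 in 20 groups. miR-103 in the first AA library was at 9969 CPM, where the other AA libraries were at 6247 to 6851, and without it the log2 fold change of miR-103 was -1.46. miR-107 in the fourth control library was at 338 CPM, where the other control libraries were at 213 to 224, and without it the log2 fold change of miR-107 was -0.54. miR-322 in the fourth control library was at 183 CPM, below the 234 to 238 of the other control libraries, and without it its log2 fold change was 0.81. The source of these 3 values was not tested.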

How the results depend on the processing

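The fall of miR-103 kept its direction and its call under all 17 alternatives. The fall of miR-107 kept its direction, and its log2 fold change was -0.51 with total counts, -0.72 with no filter on reads, and -0.91 to -0.54 with each library left out, none of these called. The rise of miR-103-2* was 0.87 with DESeq2 size factors, 0.80 with upper quartile scaling, 0.88 with the DESeq2 Wald test, 0.92 with no filter, 0.93 with the replicate block and 0.83 less the 3 most abundant miRNAs, none of these called, and 0.66 to 1.04 with each library left out, of which only the fit without the fourth control library passed. It was not tested where 10 reads were required in all 8 libraries. The number of members called went from 3 to 1 with no filter on reads and was 1 to 2 with each library left out, and 35 to 51 miRNAs were called in those 8 fits against 60. Without the second control library 35 were called and without the first 37, with 10 lower in each case against 22. Among 60 calls 22 were lower, while total counts gave 54 higher and 14 lower and upper quartile scaling 29 higher and 24 lower. Across the tested miRNAs the median log2 change was 0.06, but 0.27 with total counts and -0.06 with upper quartile scaling, and the cause of other moves was not tested.

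The ratio of miR-103 to miR-107 differed by -0.55 to -0.39 on the log2 scale with each library left out, -0.45 in the 6 libraries numbered 1 to 3 and -0.45 with the replicate block. The ratio of miR-103-2* to miR-103 differed by 1.95 to 2.24, 1.95 and 2.10, and that of miR-107* to miR-107 by 0.75 to 1.03, 0.75 and 0.88, in the same order. The smallest two-sided p of these designs is 0.0571 with 7 libraries, 0.1 with 6 and 0.125 with 4 pairs, so that none could pass 0.05. With 1 read added to each count all 3 ratios kept p = 0.0286 (exact permutation test).

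With the library number as a replicate block 78 miRNAs were called. Libraries with the same number, each centred on its group, correlated at 0.05, 0.20, 0.14 and 0.35 across the 367 miRNAs, which are not independent replicates. The libraries numbered 2, 3 and 4 correlated best with their own number but those numbered 1 did not. The number in the titles is not said to be a batch, so it entered only as an alternative. What the numbers share was not tested. With the block miR-103 and miR-107 kept their calls (edgeR adjusted p = 0.011 and 0.046), and miR-103-2* lost its call (edgeR adjusted p = 0.062). miR-191, miR-199a-5p and miR-218 were called with the block but not without it in the fit with TMM scaling and all 8 libraries (edgeR adjusted p = 0.029, 0.018 and 0.036 with it).

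Some miRNAs that were not called changed sign. miR-93 went from 0.05 to -0.0018 with DESeq2 size factors, -0.076 with upper quartile scaling, -0.0019 with the DESeq2 Wald test, -0.034 less the 3 most abundant miRNAs, -0.0029 in libraries 1 to 3 and -0.15 to 0.089 with each library left out. With total counts miR-25 was at 0.16 and miR-423* at 0.038, and with upper quartile scaling miR-195 was at -0.0021. With each library left out, miR-195 was between -0.075 and 0.17, miR-497 between -0.079 and 0.16 and miR-423* between -0.59 and 0.015. miR-191 was called in 8 of its 17 alternatives.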
